A study of Rattus norvegicus with 4 samples.

Results

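Rat neural stem/progenitor cells (NSPCs) grown on the PUCL@CNT1 platform were compared after and before a change to neuronal culture medium. The comparison used 2 of the 4 libraries of the series, chosen by platform from the sample labels: 1 from maintenance medium and 1 from differentiation medium. PUCL@CNT1 belongs to a set of electroconductive nanohybrid scaffolds, and its composition is not described further in the sources used here. Wild-type cells spent 24 h in maintenance medium, a knockout DMEM/F12 medium with StemPro neural supplement and antibiotics. The differentiation sample was then cultured for a further 1.5 d in a neuronal culture medium with B-27 Plus, so the medium and the added time in culture cannot be told apart. The other pair of libraries came from the same 2 stages on the platform labelled PUCL. Libraries were made from 500 ng of Trizol-extracted total RNA with the QuantSeq 3′ method of Lexogen. It primes on the poly(A) tail and sequences near it, so a count stands for a transcript end and not for transcript length. The maintenance library on PUCL@CNT1 held 6035848 counts over 9592 gene symbols, and the differentiation library 6855984 counts over 9842 symbols. Entries for ribosomal RNA took 9.14% and 8.49% of these counts. Each group was 1 library, so every ratio below compares 2 libraries and has no replicate check.

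NSPCs are dividing cells that keep themselves undifferentiated through factors such as Sox2 and through Notch signalling, whose effectors of the Hes family repress neuronal genes. Mitogen-rich maintenance media favour division, while neuronal media based on B-27 supply hormones, lipids and antioxidants and favour the exit from division and the making of neurons and glia. Cells build cholesterol and fatty acids from acetyl-CoA through enzymes that the transcription factors Srebf1 and Srebf2 switch on when cell sterols are low. In bulk RNA, fewer cells of a type and less RNA per cell cannot be told apart.

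Markers of the labelled cells were abundant in both libraries. The 10 NSPC markers summed to 7021 CPM (counts divided by the TMM-scaled library total) in maintenance medium and 1.08e+04 in differentiation medium, although Msi1 had no counts in any library and Hes5 none on PUCL@CNT1. Most of this came from Vim, with 29953 and 50754 of the 43861 and 71776 marker counts. Nes, Hes1, Notch1, Fabp7 and Sox9 also had more counts in differentiation medium, while Sox2 (3989 and 3879) and Pax6 (21 and 19) did not. Vim and Sox9 were named after their values were seen. The 8 markers of the oligodendrocyte lineage went from 754 to 1379 CPM, a ratio of 1.83. The 10 neuron markers went from 432 to 241 CPM, a ratio of 0.559, and 3 of them had no counts in differentiation medium. Most of these counts came from Elavl4 (939 and 428), Gap43 (815 and 679) and Map2 (614 and 238). Dcx (39 and 61) and Tubb3 (20 and 62) had more counts in differentiation medium. On PUCL the sum went from 541 to 295 CPM. Elavl4 and Gap43 were named after their values were seen. The 6 astrocyte markers summed to 88.5 and 114 CPM, nearly all of it from S100b, and 5 of the 6 had no counts in differentiation medium, Gfap among them. The 6 defining microglia markers, Aif1 and Csf1r among them, had no counts in any library, while Cd68 and Cd14, found in phagocytes more widely and named after their values were seen, had 0 and 24 and 28 and 51 counts. The 6 endothelium markers summed to 17.6 and 29.5 CPM, with Pecam1 and Cdh5 at 0. These counts came from Flt1 (24 and 125), Kdr (69 and 71) and Cldn5 (17 and 0). Kdr was named after its values were seen. Markers of mural cells and fibroblasts summed to 1.28 and 25.3 CPM, in differentiation medium mostly from Col1a1 and Col3a1. Those of ependyma and choroid plexus summed to 1.28 and 6.02 CPM.

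Size of the change was described by a rule for single pairs of libraries: the scaled ratio had to reach 2-fold, and its nearer exact 95% binomial (Clopper-Pearson) bound had to lie beyond 1.5-fold. These bounds cover counting error only, since each side is 1 library. Where the medium ratio on PUCL@CNT1 is compared with that on PUCL, the rule takes its bound from a normal interval on the log scale instead. The reads carry no molecular identifiers, so copies of 1 molecule cannot be told from separate molecules, and the bounds may be too narrow. By this rule 1736 of 10516 genes (16.5%) were higher in the differentiation library and 1522 (14.5%) were lower, 31% in all. How often a gene passed depended on how well it was counted. The rule was met by 52.2% of the 2331 genes with a mean below 30 counts over the 4 libraries, by 14.3% of the 2351 genes between 300 and 1000, and by 4.4% of the 364 genes with 3000 or more. Single libraries of the same medium on the 2 platforms also differed often among scarce genes. In maintenance medium, 26.1% of all genes differed between platforms by the same rule, but only 3.84% of the 3619 genes that averaged at least 300 counts. In differentiation medium these shares were 30.8% and 8.18%. Among those 3619 well-counted genes, a limit chosen after the values were seen, 207 (5.72%) were higher and 201 (5.55%) lower after the medium change on PUCL@CNT1.

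**Figure D1:**
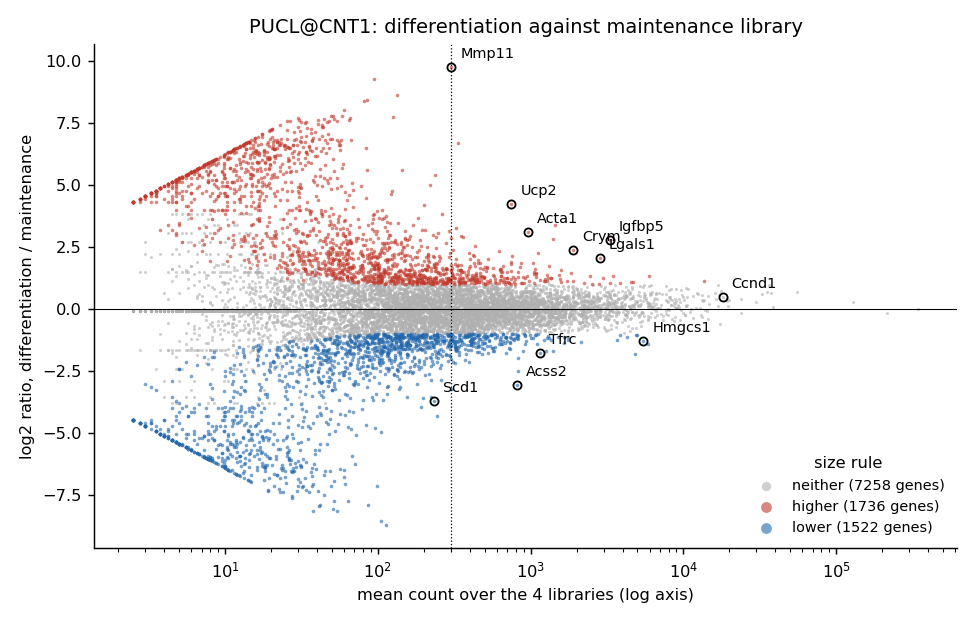
Each point is 1 of 10516 genes, with its mean count over the 4 libraries on a log axis and, on the vertical axis, the log2 ratio of differentiation to maintenance medium on PUCL@CNT1. The 1736 genes that met the size rule upward are red, the 1522 downward are blue and the rest grey; the dotted line marks a mean of 300 counts, to the right of which large ratios become scarce, and Mmp11, with 0 counts in maintenance medium, is drawn at the ratio that a prior count of 0.5 gives.

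**Figure D2:**
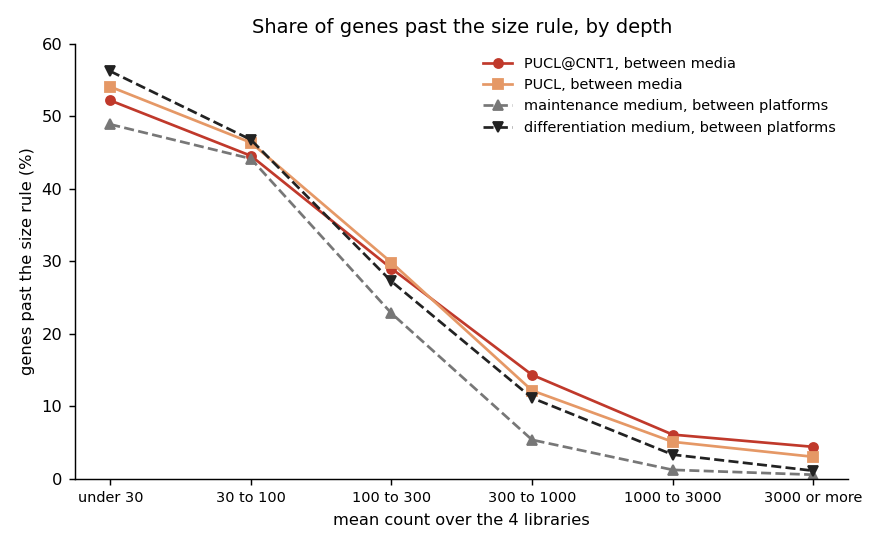
The percent of genes that met the size rule is shown for 6 classes of mean count and for 4 pairs of libraries: the medium change on each platform and the 2 platforms in each medium. On PUCL@CNT1 the share fell from 52.2% in the scarcest class to 4.4% in the most abundant one, and in the scarcest class all 4 pairs lay close together.

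A test over the medium change was possible only with the 4 libraries together. The edgeR quasi-likelihood fit with platform and medium as terms treats the 2 platforms as repeats of 1 change, and it is given beside the ratios, not as a test of PUCL@CNT1 alone. It found 189 genes higher (1.8%) and 107 lower (1.02%) in differentiation medium at an adjusted p of 0.05 (2.81% in all), so 63.9% of the changed genes rose. With library totals as the scale, 139 rose and 122 fell (53.3% rose), so the balance of the 2 directions rests on the scaling. Of the genes that met the size rule on PUCL@CNT1, 131 higher and 78 lower ones were among them. Below, "rose" and "fell" are used only for genes past this edgeR threshold, and ratios are log2 of differentiation over maintenance medium. Counts of list members that were higher or lower stand beside the 16.5% and 14.5% of all genes.

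Sterol synthesis genes were lower almost throughout on PUCL@CNT1. Of 20 tested cholesterol biosynthesis genes, 8 were lower by the size rule and 1 was higher, 19 had ratios below 0, and the median log2 ratio was -0.97 (all genes -0.02). In edgeR 13 of the 20 fell. Hmgcs1, which makes HMG-CoA at the entry of the pathway, fell from 6735 to 2877 counts on PUCL@CNT1, a log2 ratio of -1.32 (95% interval -1.38 to -1.25, edgeR adjusted p 6.85e-10). On PUCL it went from 9417 to 2817 counts, so the differentiation library was the lower one on both platforms. Further along the pathway, Mvd, which makes isopentenyl diphosphate, fell from 280 to 92 counts (log2 -1.69). The isomerase Idi1, which had the most counts of the list, fell from 19786 to 13836 counts, a log2 ratio of -0.61 that did not meet the size rule. Among the late enzymes that turn lanosterol into cholesterol, Msmo1 fell from 6210 to 3204 counts (log2 -1.04), Nsdhl from 848 to 336 (log2 -1.42) and Hsd17b7 from 304 to 56 (log2 -2.52). Msmo1 and Nsdhl were named after their values were seen. In other tests or settings of the same change, edgeR's with another scale, filter or design and DESeq2's, the calls of Hmgcs1 and Msmo1 held in 6 of 6. Those of Mvd and Hsd17b7 held in 4 of 5, that of Nsdhl in 5 of 6 and that of Idi1 in 4 of 6.

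Some sterol genes had ratios nearer 0 on PUCL@CNT1 than on PUCL. Tm7sf2, a sterol reductase, had 493 counts in maintenance and 412 in differentiation medium on PUCL@CNT1 (log2 -0.35) against 1075 and 189 on PUCL (log2 -2.48). Fdps, which makes farnesyl diphosphate, had 1824 and 1129 counts on PUCL@CNT1 (log2 -0.78) and 2482 and 683 on PUCL (log2 -1.83). Dhcr7, the last reductase of the pathway, had 622 and 486 counts (log2 -0.45) against 1221 and 434 (log2 -1.46). With the scarcer Lss, 4 members had a ratio on PUCL@CNT1 that was higher than the ratio on PUCL by the size rule (15.4% of all genes) and none had a lower one. The list median was -1.43 on PUCL. These 4 genes were named after their values were seen, and with 1 library per group the difference between platforms was not tested.

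Promoters of sterol genes are shown because these genes moved together. Of the 12 genes of sterol synthesis, sensing and uptake that met the size rule downward, 8 have a promoter of 300 bases in RefSeq for the GRCr8 assembly, from 250 bases before to 50 after the start. The deposited counts were made on rn6, and GRCr8 coordinates are given for the sequences only. The core of the sterol regulatory element, TCACNCCAC, was found on either strand in 0 of the 8 (1.12% of 33465 promoters), and the E-box CACGTG in 1 of the 8 (6.42%). CCAAT, the box bound by the NF-Y factor and searched after the sequences were seen, stood on either strand in 7 of the 8, against 37.5% of all promoters; of all 27 tested sterol genes with a promoter, 20 held it. The promoters of 1 early and 2 late enzymes are printed 5′ to 3′, with CCAAT or its reverse complement ATTGG in capitals. They lie at chr2:53382054-53382353 (Hmgcs1), chr16:29746863-29747162 (Msmo1) and chrX:155817110-155817409 (Nsdhl), all on the plus strand.
Hmgcs1: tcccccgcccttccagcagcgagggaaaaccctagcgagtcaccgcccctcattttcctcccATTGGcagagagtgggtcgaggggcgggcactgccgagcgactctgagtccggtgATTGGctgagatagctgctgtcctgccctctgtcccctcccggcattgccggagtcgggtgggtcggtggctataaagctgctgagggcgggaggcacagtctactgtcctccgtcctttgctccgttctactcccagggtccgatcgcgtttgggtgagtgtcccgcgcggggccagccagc
Msmo1: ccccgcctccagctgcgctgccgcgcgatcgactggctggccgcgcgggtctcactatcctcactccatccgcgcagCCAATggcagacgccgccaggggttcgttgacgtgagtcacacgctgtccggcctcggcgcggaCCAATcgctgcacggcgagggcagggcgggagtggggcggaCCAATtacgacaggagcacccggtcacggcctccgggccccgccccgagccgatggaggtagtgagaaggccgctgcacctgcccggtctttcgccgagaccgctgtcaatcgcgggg
Nsdhl: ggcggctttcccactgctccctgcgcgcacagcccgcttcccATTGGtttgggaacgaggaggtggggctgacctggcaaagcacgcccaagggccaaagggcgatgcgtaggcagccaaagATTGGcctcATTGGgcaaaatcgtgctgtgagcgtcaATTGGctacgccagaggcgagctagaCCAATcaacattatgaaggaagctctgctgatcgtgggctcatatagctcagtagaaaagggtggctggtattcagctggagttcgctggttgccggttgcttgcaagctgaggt
Hmgcs1 holds 2 CCAAT matches, Msmo1 3 and Nsdhl 5. A match is a description of these letters, and a missing match says nothing of the factor.

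Sterol sensors and uptake genes were less uniform. Of 15 tested, 2 were higher and 4 lower, with a median of -0.54. Insig1, the sterol-sensitive anchor that holds Srebf proteins in the endoplasmic reticulum, fell from 728 to 406 counts (log2 -0.93). Srebf2, the main driver of sterol genes, had 2149 and 1820 counts (log2 -0.33), while Srebf1, which drives fatty acid genes, had 138 and 359 counts (log2 1.29, interval 1.00 to 1.58). Srebf1 stood on the other side of 0 from most genes of acetyl-CoA supply and fatty acid synthesis, of which 14 of 17 had ratios below 0. Its link to them was not tested. Soat1, which esterifies cholesterol for storage, had 210 and 36 counts. Of these 4 genes only Insig1 passed in edgeR, and its call held in 2 of 6 other tests.

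Genes of acetyl-CoA supply and fatty acid synthesis were often lower, with 8 of 17 tested genes lower, 1 higher and a median of -1.08; 7 fell in edgeR. Acss2, which makes acetyl-CoA from acetate, fell from 1174 to 146 counts on PUCL@CNT1 (8.53-fold lower, log2 -3.09, interval -3.35 to -2.85, edgeR adjusted p 6.07e-11). On PUCL it went from 1677 to 246 counts, so the 2 differentiation libraries were both far below the 2 maintenance libraries. Acly, which makes acetyl-CoA from citrate, fell from 4264 to 1898 counts, and the citrate carrier Slc25a1 from 973 to 416. Fasn, the fatty acid synthase, fell from 1924 to 633 counts (log2 -1.69). The desaturase Scd1 fell from 345 to 27 counts, a log2 ratio of -3.74 on PUCL@CNT1 against -2.32 on PUCL. Its relative Scd2, with 4196 and 2784 counts, had a smaller ratio of -0.68. Acaca, which makes malonyl-CoA, was the 1 member that was higher, at 0 and 16 counts. Slc25a1 and Scd2 were named after their values were seen.

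Genes of fatty acid oxidation went the other way. Of 29 tested genes of fatty acid oxidation and ketone bodies, 12 were higher and 2 lower on PUCL@CNT1, 24 had ratios above 0, and the median was 0.81, close to the 0.83 on PUCL; 3 rose in edgeR. Single members differed more than the medians, and 18 of the 29 lay above 0 on both platforms. By the size rule 6 had a higher ratio on PUCL@CNT1 than on PUCL (15.4% of all genes) and 6 a lower one (14.1%). Among the 7 well-counted members, 2 were higher and 0 lower on PUCL@CNT1. Cpt1a, which admits long-chain fatty acids to mitochondria, rose from 610 to 1170 counts (log2 0.85), and the isomerase Eci1 from 285 to 646 (log2 1.09). Hadhb, a subunit of the trifunctional enzyme of beta-oxidation, had 301 and 1015 counts on PUCL@CNT1 (log2 1.66) but 402 and 364 on PUCL (log2 -0.11). Its partner subunit Hadha had 275 and 301 counts, a ratio of 0.04, so the 2 subunits differed. Acad11, an acyl-CoA dehydrogenase, had 0 counts in both maintenance libraries, and 109 and 69 in differentiation medium on PUCL@CNT1 and PUCL. Cpt1a and Eci1 also passed in 3 of 6 other tests, Acad11 in 2 of 5. Eci1, Hadhb and Hadha were named after their values were seen.

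Ucp2, a carrier of the mitochondrial inner membrane from the uncoupling family, showed the largest ratio upward of the well-counted genes after Mmp11 and Tmem176b, which had 0 and 3 counts in maintenance medium. It rose from 43 to 876 counts on PUCL@CNT1, 18.9-fold (log2 4.24, interval 3.82 to 4.74, edgeR adjusted p 1.19e-16), and from 95 to 1971 on PUCL. Both differentiation libraries lay far above both maintenance libraries, and the level on PUCL was the higher of the 2 in each medium. Of the 24 tested members of the Slc25 carrier family, 3 were higher and 6 lower. Respiratory chain and ATP synthase subunits, in contrast, had 1 of 40 higher and 1 lower, yet 33 of 40 had ratios above 0 (median 0.36) and 3 rose in edgeR. The largest of these ratios was that of Cox8a, a cytochrome oxidase subunit, which rose from 7528 to 17326 counts (log2 1.11) against 13846 and 15712 on PUCL; its call held in 4 of 6 other tests.

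Genes of thyroid hormone, glucocorticoid and retinoid signalling, which include receptors, carriers and targets, were often higher, although many were scarce. Of 25 tested, 13 were higher and 2 lower, the median was 1.56 and 4 rose; 10 of the 25 had 0 counts in 1 of the 2 libraries, and among the 7 well-counted members 2 were higher, 0 were lower and the median was -0.06. With genes at 0 set to the floor of 3 counts, the median of the 25 was 1.57. Crym, which binds thyroid hormone in the cytosol, rose from 397 to 2167 counts on PUCL@CNT1 (log2 2.36, edgeR adjusted p 6.86e-16) and from 377 to 4678 on PUCL (log2 3.66). The start was alike and the end point on PUCL@CNT1 was less than that on PUCL, a difference of ratios of -1.30 (interval -1.52 to -1.09) that was not tested. Klf9, a target of both thyroid hormone and glucocorticoids, rose from 476 to 1542 counts (log2 1.60). Tsc22d3, a glucocorticoid target, rose from 95 to 300 counts. The call of Tsc22d3 held in 1 of 5 other tests. Fkbp5 and Sgk1, also glucocorticoid targets, had log2 ratios of -0.21 and -0.10, so the targets of that hormone did not move alike. Tsc22d3, Fkbp5 and Sgk1 were named after their values were seen.

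**Figure D3:**
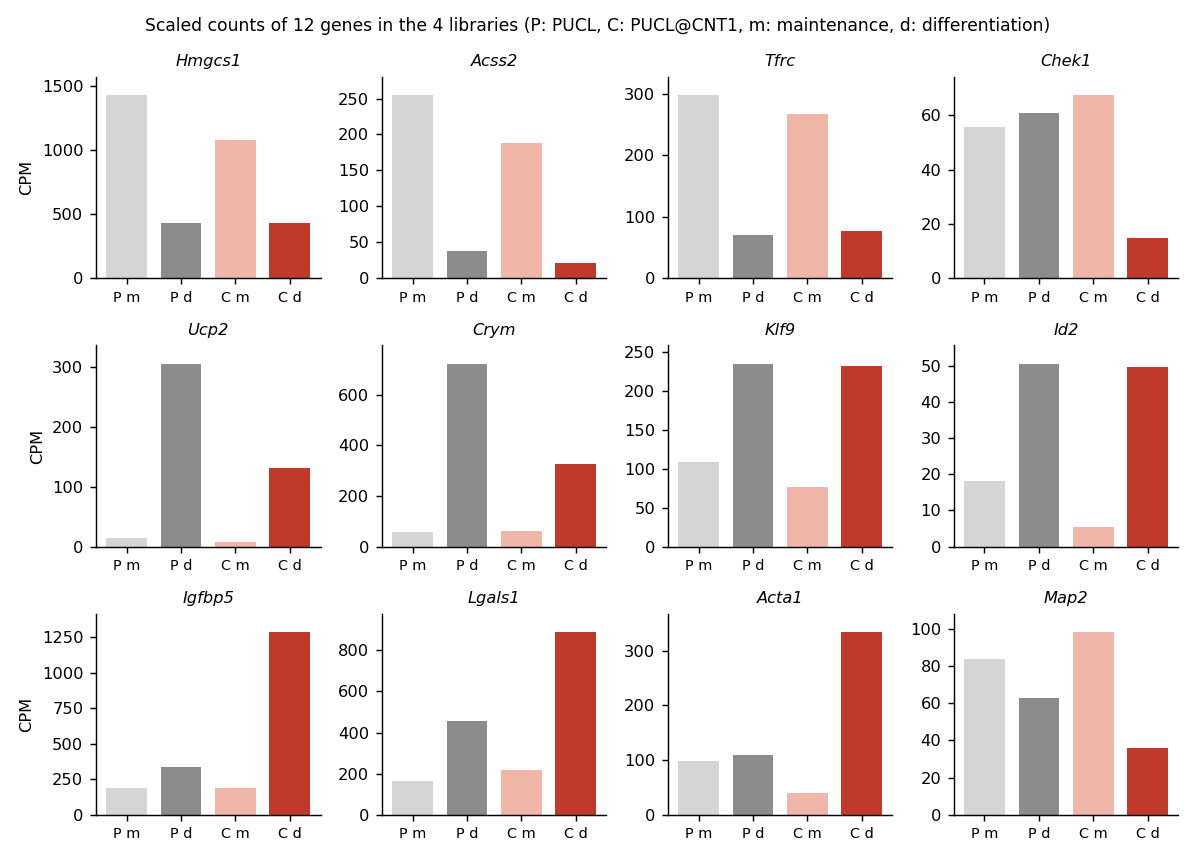
Bars give the level of 12 genes in CPM in each of the 4 libraries, 1 library per bar and no error bars, with P for PUCL, C for PUCL@CNT1, m for maintenance and d for differentiation medium under each bar. Hmgcs1, Acss2 and Tfrc were low and Ucp2, Crym and Klf9 high in both differentiation libraries, while Acta1 (39.1 to 334 CPM) and Igfbp5 (189 to 1287 CPM) stood out in the differentiation library on PUCL@CNT1, and Chek1, chosen after its values were seen, was low there (14.7 CPM).

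Progenitor genes were not lower as a group after the medium change on PUCL@CNT1. Of 20 tested, 3 were higher and 2 lower, the median was 0.42 and 4 rose in edgeR. Sox2, the core factor of neural stem cells, had 3989 and 3879 counts (log2 -0.13), where PUCL had 4219 and 6301 (log2 0.61). Nes, the intermediate filament of progenitors, had 2363 and 3714 counts (log2 0.56). Fabp7, the lipid carrier of radial glia, rose from 3602 to 7396 counts (log2 0.95), and Hes1, the Notch effector, from 354 to 839 (log2 1.15); 5 of 6 other tests also called Hes1. Emx2, a factor of cortical progenitors, had 123 and 535 counts on PUCL@CNT1 (log2 2.03) but 416 and 228 on PUCL. The differentiation library on PUCL@CNT1 was thus the highest of the 4 and the maintenance library there the lowest.

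Of 18 tested genes of the Notch pathway, 5 were higher and 1 lower, and only Hes1 rose in edgeR. Ratios lay above 0 for 10 and below 0 for 8, with a median of 0.19. Among the 5 well-counted members 2 lay above 0 and 3 below, with a median of -0.30. Maml1 was the lower member, with 70 and 9 counts (log2 -2.98). The ligand gene Jag1 had 94 and 213 counts (log2 1.09) and the receptor gene Notch2 512 and 994 (log2 0.87), while the receptor Notch1 had 201 and 265 (log2 0.31). Jag1 and Notch2 were named after their values were seen. Among the Id proteins, which block proneural factors, Id2 rose from 34 to 330 counts on PUCL@CNT1 (9-fold, log2 3.17, interval 2.68 to 3.74) and from 119 to 327 on PUCL, with a call that held in 4 of 5 other tests. Both differentiation libraries reached about the same Id2 level, and the maintenance library on PUCL@CNT1 was the lowest of the 4. Id1 (708 and 711 counts) and Id3 (623 and 698) had ratios of -0.08 and 0.07, so these relatives stayed near their start.

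Neuronal genes went in both directions. Of 28 genes of immature neuron structure, 9 were higher and 5 lower (median 0.33), and 5 rose and 1 fell in edgeR. Tmsb10, which binds actin monomers in growing neurites, rose from 3810 to 10275 counts on PUCL@CNT1 (log2 1.34, edgeR adjusted p 4.03e-05). The tubulin Tubb2b, 1 of the most abundant genes, rose from 44784 to 76986 counts (log2 0.69). Against these, Map2, the microtubule protein of dendrites, had 614 counts in maintenance and 238 in differentiation medium on PUCL@CNT1 (log2 -1.46, interval -1.68 to -1.24) and 552 and 407 on PUCL. Elavl4, an RNA-binding protein of neurons, had 939 and 428 counts (log2 -1.22) and 979 and 733 on PUCL (log2 -0.39). Both were lowest of the 4 libraries in differentiation medium on PUCL@CNT1, and neither passed in edgeR. The classic markers of new neurons were scarce, with 39 and 61 counts for Dcx and 20 and 62 for Tubb3. Pou3f2, a factor that promotes neuronal fate, rose from 214 to 665 counts (log2 1.54), the only one of 14 tested proneural and neuronal factors to pass; it passed in 5 of 6 other tests and Tubb2b in 4. Tubb2b and Elavl4 were named after their values were seen.

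Synapse genes leaned lower on PUCL@CNT1 by count, with 3 of 28 higher and 8 lower, but the median of -0.09 (0 with genes at 0 set to the floor of 3 counts) gives no direction, since library totals as the scale would shift all ratios by -0.094. Cplx2, a regulator of release, had 371 and 184 counts on PUCL@CNT1 (log2 -1.10) and 422 and 551 on PUCL (log2 0.41). Nrxn2, a presynaptic adhesion protein, was 1 of the 3 that were higher and rose from 380 to 1444 counts (log2 1.83, edgeR adjusted p 6.92e-06), with a like ratio of 1.88 on PUCL. Scg2, a protein of secretory granules outside the list, fell from 460 to 52 counts, 9.34-fold (log2 -3.22), and from 545 to 159 on PUCL (log2 -1.75). Cplx2 and Scg2 were named after their values were seen. Kcnd3, a potassium channel of the A type, had 88 and 401 counts (log2 2.09) and 102 and 228 on PUCL.

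Oligodendrocyte lineage genes were more often higher than lower, with 7 of 18 higher, 1 lower, a median of 0.69, and 5 that rose. Olig1, the lineage factor, rose from 1670 to 4169 counts (log2 1.23, edgeR adjusted p 1.92e-05), close to the ratio of 1.17 on PUCL, whereas its neighbour factor Olig2 had 1975 and 2930 counts (log2 0.48). The myelin genes Cnp (524 to 1116 counts) and Cldn11 (100 to 344) rose as well, and Mag, the myelin-associated glycoprotein, had 39 and 178 counts. Cldn11 had a log2 ratio of 1.69 on PUCL@CNT1 and 4.07 on PUCL. Astrocyte genes were divided. Of 17, 2 were higher and 2 lower, and the median was -0.06 on PUCL@CNT1 against 0.82 on PUCL. For the 10 well-counted members the medians were closer, at 0.40 and 0.76. By the size rule 6 of the 17 had a lower ratio on PUCL@CNT1 than on PUCL (14.1% of all genes) and none a higher one. S100b, the calcium-binding glial protein, had 534 and 761 counts on PUCL@CNT1 (log2 0.42) and 683 and 3939 on PUCL (log2 2.56), a difference of -2.13 (interval -2.33 to -1.94). Sparcl1, a matrix protein that astrocytes secrete, had 1006 and 446 counts on PUCL@CNT1 and 1340 and 2087 on PUCL, ratios of -1.26 and 0.67. In both genes the differentiation library on PUCL was the highest of the 4. The call of S100b held in 5 of 6 other tests, with an adjusted p above 0.05 in 1. Clu, the secreted chaperone, rose from 292 to 1001 counts (log2 1.69) and Nfix, a glial factor, from 140 to 496 (log2 1.73), so these 2 did not share that pattern. Cnp and Cldn11 were named after their values were seen.

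DNA replication genes leaned lower on PUCL@CNT1. Of 30 S phase genes, 26 had ratios below 0 on PUCL@CNT1 with a median of -0.54, and the median on PUCL was 0.16. Few were large: 4 were lower by the size rule and 0 higher. The S phase genes named here did not pass in edgeR. Rfc4, a clamp loader subunit, had 521 and 154 counts on PUCL@CNT1 (log2 -1.84, interval -2.12 to -1.59) and 422 and 260 on PUCL (log2 -0.67). Pold1, the catalytic subunit of polymerase delta, had 426 and 171 counts (log2 -1.40). Mcm7, a helicase subunit, had 1193 and 711 on PUCL@CNT1 but 1155 and 1842 on PUCL, ratios of -0.84 and 0.70. Mcm2, of the same complex, had 1341 and 1254 counts (log2 -0.19). Ratios on PUCL@CNT1 were thus mostly within 2-fold but nearly all on 1 side. By the size rule 7 of 30 were lower than on PUCL (14.1% of all genes) while 1 was higher (15.4%). Chek1, the checkpoint kinase, had 421 and 98 counts on PUCL@CNT1 (log2 -2.19) and 368 and 394 on PUCL. Gmnn, which limits replication to once per cycle, had 406 and 102 counts and, on PUCL, 514 and 466. Mcm7, Chek1 and Gmnn were named after their values were seen.

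Mitotic genes were split on PUCL@CNT1. Of 28, 6 were lower and 1 higher, with a median of -0.37 (-0.02 on PUCL). Mki67, the proliferation marker, had 895 and 470 counts on PUCL@CNT1 (log2 -1.02) and 822 and 830 on PUCL. Top2a, which untangles DNA, had 1059 and 485 counts (log2 -1.22) against 981 and 796, and the kinase Aurkb 402 and 117 (log2 -1.87) against 340 and 258. For all 3 the differentiation library on PUCL@CNT1 was the lowest of the 4. Other mitotic genes stayed near their start there: Birc5 had 4817 and 5828 counts, Cdc20 2653 and 2787, and Plk1 1607 and 1812, ratios of 0.18, -0.02 and 0.08. Ccnd1, the G1 cyclin that mitogens induce, had 16467 and 24679 counts on PUCL@CNT1 (log2 0.49) and 18766 and 12271 on PUCL (log2 -0.58). Birc5, Cdc20 and Plk1 were named after their values were seen.

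Genes of growth arrest and apoptosis leaned higher on PUCL@CNT1, with 5 of 21 higher (16.5% of all genes) and 1 lower (14.5%). The median was 0.54 (0.11 on PUCL) and 2 rose. Cdkn1a, the p21 inhibitor of cyclin-dependent kinases, rose from 2174 to 4664 counts (log2 1.01) and had 1422 and 1810 on PUCL; its edgeR adjusted p of 0.0498 passed in 0 of 6 other tests. Ccng1 rose from 1276 to 2905 counts (log2 ratio of 1.1), with a call that held in 5 of 6. Mdm2, a ubiquitin ligase, had 317 and 855 counts on PUCL@CNT1 (log2 1.34) and 416 and 321 on PUCL (log2 -0.34), and Cdkn1b, the p27 inhibitor, 140 and 396 against 406 and 382. By the size rule 6 of the 21 had a higher ratio on PUCL@CNT1 than on PUCL (15.4% of all genes) and 1 had a lower one (14.1%). Ccng1 was named after its values were seen.

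Ribosome assembly factors, a list added after values were seen, mostly had ratios below 0 on both platforms, with 18 of 85 lower, 1 higher and a median of -0.49 on PUCL@CNT1 and -0.48 on PUCL. Of the 85, 72 had ratios below 0 on PUCL@CNT1, 62 of them on PUCL too, and 7 fell in edgeR. Wdr43 fell from 2998 to 1260 counts (log2 -1.34) and Bms1, a GTPase of the small subunit, from 1372 to 550 (log2 -1.41). The nucleolar proteins Ncl (6251 to 3907) and Npm1 (4126 to 2513) had log2 ratios of -0.77 and -0.81 and fell as well; these calls and that of Bms1 held in 5 of 6 other tests. Rsl24d1, which joins the large subunit late, had 588 and 199 counts on PUCL@CNT1 (log2 -1.65) and 376 and 391 on PUCL. The ribosomal proteins themselves stayed near their start: 0 of 43 were higher or lower by the size rule, 36 of 43 had ratios above 0, and the median was 0.22 on PUCL@CNT1 and -0.01 on PUCL. Ncl, Npm1 and Rsl24d1 were named after their values were seen.

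Genes of galectins, annexins and S100A proteins were often higher. Of 20, 11 were higher and 1 lower, with a median of 1.24, and 6 rose in edgeR. Lgals1, a secreted lectin, rose from 1348 to 5910 counts on PUCL@CNT1 (4.12-fold, log2 2.04, interval 1.96 to 2.13, edgeR adjusted p 1.3e-09) and from 1092 to 2960 on PUCL. Lgals3, its relative, had 653 and 1692 counts on PUCL@CNT1 (log2 1.28) and 603 and 595 on PUCL (log2 0.01). Anxa2 rose from 992 to 2757 counts (log2 1.38), Anxa1 from 164 to 830 (log2 2.25) and S100a4 from 220 to 1015 (log2 2.11). S100a10, the partner of Anxa2 in 1 complex, had 6551 and 10565 counts on PUCL@CNT1 (log2 0.60) but 7359 and 4489 on PUCL (log2 -0.68). Among the 11 well-counted members the median was 1.15 on PUCL@CNT1 and 0.16 on PUCL. Of these 11, 5 had a higher ratio on PUCL@CNT1 by the size rule (6.91% of all well-counted genes). Anxa7 was the 1 lower member, with 823 and 376 counts and a like ratio on PUCL. Crip1, a small LIM protein outside the list, rose from 268 to 2989 counts, a log2 ratio of 3.39, and from 710 to 1788 on PUCL (log2 1.36). Crip1, Lgals3, Anxa1, S100a4 and S100a10 were named after their values were seen, and the call of S100a4 held in 4 of 6 other tests.

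Some genes of growth factor binding and matrix turnover rose. Igfbp5, which binds insulin-like growth factors, rose from 1179 to 8555 counts on PUCL@CNT1 (6.82-fold, log2 2.77, interval 2.68 to 2.86, edgeR adjusted p 3.45e-08), while PUCL had 1251 and 2155 (log2 0.81). The 3 other libraries lay between 1179 and 2155 counts, all below the differentiation library on PUCL@CNT1, and DESeq2 gave an adjusted p of 0.379. Igfbp7 rose from 522 to 1275 counts (log2 1.20), and Igfbp2, the most abundant member, had 15685 and 18270 (log2 0.13). Of 15 genes of the insulin-like growth factor axis, 4 were higher and 1 lower, and 2 rose. Of 23 matrix proteases and inhibitors, 10 were higher and 1 lower, and 4 rose. Mmp11, a protease first known from tumour stroma, had 0 counts in maintenance and 464 in differentiation medium on PUCL@CNT1, at least 145-fold higher, and 43 and 703 on PUCL (edgeR adjusted p 2.41e-10, DESeq2 0.195). Mmp2, a gelatinase, rose from 29 to 200 counts, and the inhibitor Timp1 had 3894 and 3837. Timp1 was named after its values were seen.

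Integrin and matrix genes moved one by one. Itga6, a laminin receptor subunit found on neural stem cells, fell from 1756 to 571 counts (log2 -1.71), against 1675 and 1057 on PUCL. Itgb5 rose from 48 to 301 counts and Itga7 from 104 to 418, while Itgb1, the common partner subunit, had 3052 and 3290 (log2 0.02). Of 30 matrix genes 6 were higher and 6 lower. Fn1, fibronectin, had 218 and 508 counts on PUCL@CNT1 (log2 1.13) and 342 and 373 on PUCL. Col18a1, a basement membrane collagen, rose from 481 to 1476 (log2 1.53). The call of Itgb5 held in 5 of 6 other tests, that of Col18a1 in 4 of 6 and that of Itga7 in 4 of 5. The 7 markers of mural cells and fibroblasts, which also make matrix, summed to 1.28 and 25.3 CPM. Most of these counts in differentiation medium came from Col1a1 (1 and 88) and Col3a1 (0 and 65), which are matrix genes of this list themselves. In a longer list of such markers, 3 of 11 tested were higher and 2 lower. The part of these cells in the matrix values was not tested. Col18a1 was named after its values were seen. In the actin list of 28, Acta2, the smooth muscle actin, fell from 4664 to 2279 counts (log2 -1.12) with a like ratio on PUCL, and Myl9, a regulatory light chain, rose from 19 to 383 (log2 4.21).

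**Figure D4:**
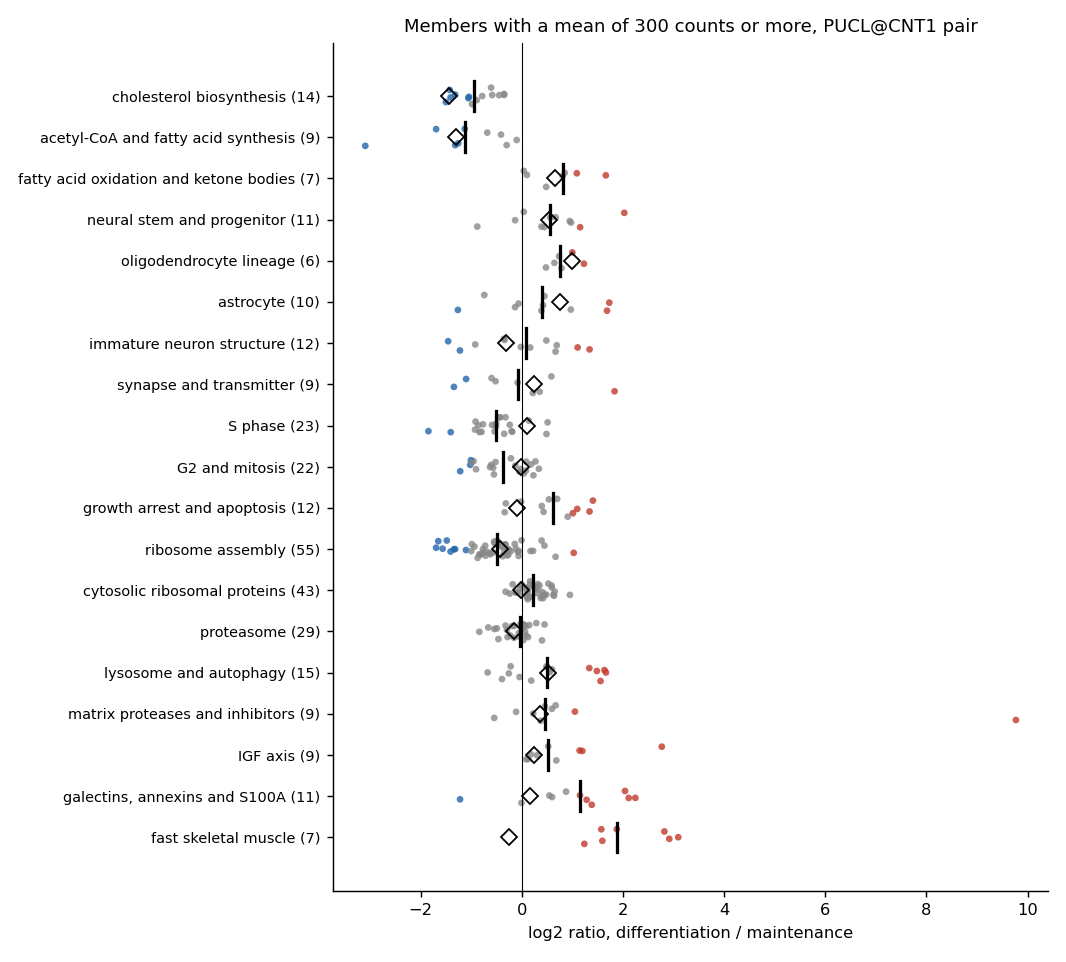
Points are list members with a mean of 300 counts or more, placed by their log2 ratio on PUCL@CNT1 and coloured by the size rule, for 19 gene lists; the black bar is the median on PUCL@CNT1 and the open diamond the median of the same members on PUCL. Bars and diamonds lie close for ribosome assembly, fatty acid and lysosome genes and apart for S phase genes, galectins and fast muscle genes; Mmp11 is drawn at 9.77, its value with a prior count of 0.5.

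Transcripts of fast skeletal muscle were higher in the differentiation library on PUCL@CNT1, a pattern seen in these data first and described with a list added afterwards. Of 27 tested genes, 22 were higher and 1 lower, with a median of 2.63 on PUCL@CNT1 (2.37 with genes at 0 set to the floor of 3 counts) and -0.05 on PUCL. The counts of all 30 listed genes in the files summed to 5696 (PUCL) and 2334 (PUCL@CNT1) in maintenance medium, and to 5130 and 12893 in differentiation medium. In CPM these sums were 864, 374, 794 and 1939, a ratio of 5.19 on PUCL@CNT1. The maintenance library on PUCL@CNT1 was thus the lowest and the differentiation library there the highest of the 4, and the PUCL libraries lay between. Acta1, skeletal alpha-actin, had 244 and 2222 counts on PUCL@CNT1 (log2 3.09, interval 2.91 to 3.29) and 649 and 702 on PUCL. Myh4, a fast myosin heavy chain, had 379 and 2852 counts (log2 2.82) and 1199 and 1129 on PUCL. Tnnc2, fast troponin C, had 19 and 663 counts (log2 5) and 86 and 103 on PUCL. These 3 passed in edgeR, but in 4 of 6 (Acta1, Myh4) and 1 of 5 (Tnnc2) other tests. Of the 5 factors that direct muscle cells to form, Myod1, Myog, Myf5 and Pax7 had no counts in any library, and Myf6 had 24 in the differentiation library on PUCL@CNT1 alone. By the size rule 20 of the 27 had a higher ratio on PUCL@CNT1 than on PUCL (15.4% of all genes). The part of another cell source in this was not tested. Myh4 and Tnnc2 were named after their values were seen.

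Antigen presentation and inflammation genes were more often higher than lower, with 14 of 25 higher, 2 lower and a median of 1.21 (0.19 on PUCL), but only 3 were well counted and none of these met the size rule. B2m, the light chain of class I molecules, rose from 3179 to 6154 counts (log2 0.86) and from 2481 to 5013 on PUCL. Cxcl1, a chemokine, had 4 and 230 counts on PUCL@CNT1 and 51 and 52 on PUCL. Psmb9, a subunit of the immunoproteasome, had 116 and 287 counts (log2 1.21). Nfkbia and Psmb10, both well counted, had ratios of -0.22 and -0.11. The 6 defining microglia markers stood at 0 in all libraries. B2m, Psmb9, Nfkbia and Psmb10 were named after their values were seen.

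Lysosome and autophagy genes were more often higher than lower, with 11 of 32 higher, 3 lower, a median of 0.53 (0.61 on PUCL) and 6 that rose. Single members differed more than the medians. By the size rule 6 of the 32 had a higher ratio on PUCL@CNT1 than on PUCL (15.4% of all genes) and 9 a lower one (14.1%). Grn, progranulin, rose from 454 to 1353 counts (log2 1.49, edgeR adjusted p 0.000833). Ctsb, cathepsin B, rose from 288 to 954 counts and Lamp2, a membrane protein of lysosomes, from 181 to 612, although the call of Ctsb was lost in all 6 other tests and that of Lamp2 in 4. Grn and Lamp2 were named after their values were seen.

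Iron genes went in both directions. Of 16, 4 were higher and 3 lower, shares near those of all genes; 3 rose and 2 fell in edgeR. Tfrc, the transferrin receptor that takes iron up, fell from 1667 to 516 counts on PUCL@CNT1 (3.44-fold, log2 -1.78, interval -1.93 to -1.64, edgeR adjusted p 1.73e-07) and from 1959 to 460 on PUCL. Fth1, the ferritin heavy chain that stores iron, rose from 10655 to 17363 counts (log2 0.61) and by a like ratio of 0.62 on PUCL. Hmox1, which breaks heme down, fell from 3474 to 1554 counts (log2 -1.25); its maintenance library on PUCL@CNT1 was the highest of the 4, above 1272 and 750 on PUCL. Slc7a11, a cystine transporter of the stress response lists, rose from 184 to 662 counts (log2 1.75). Tf, transferrin, rose from 39 to 119 counts (log2 1.51) and Cp, a ferroxidase, from 9 to 110 (log2 3.45). Among uptake genes, Slc11a2, an iron transporter, had 164 and 78 counts and Steap3, a reductase, 0 and 23, so these did not share a direction. Fth1 and Tf were named after their values were seen.

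Stress and glucose genes were mixed. Ddit4, an inhibitor of the mTORC1 kinase that hypoxia and glucocorticoids induce, rose from 285 to 1463 counts (log2 2.27, edgeR adjusted p 5.88e-07), while Vegfa, a classic hypoxia target, fell from 343 to 75 (log2 -2.28) and the glucose transporter Slc2a1 had 171 and 20. The 19 hypoxia genes had 3 higher and 6 lower, with a median of -0.36 (0.03 on PUCL). The small chaperones Cryab (118 to 593 counts) and Hspb1 (186 to 488) rose, and 4 of 18 heat shock genes were higher and 1 lower, with a median of 0.32. Of 21 glycolysis genes 2 were higher and 1 lower, with a median of 0.39 on PUCL@CNT1 and -0.36 on PUCL. Ldha, lactate dehydrogenase, had 1648 and 3014 counts on PUCL@CNT1 (log2 0.78) and 1440 and 1417 on PUCL. Tpi1, a glycolytic isomerase, had 715 and 1221 (log2 0.68) but 1349 and 638 on PUCL (log2 -1.05). By the size rule 7 of the 21 had a higher ratio on PUCL@CNT1 (15.4% of all genes) and 1 a lower one (14.1%). Pfkm, the muscle form of phosphofructokinase and 1 of the 2 higher members, had 164 and 385 counts (288 and 296 on PUCL). The summed fast muscle genes were also higher in this library (374 and 1939 CPM); their part in the glycolysis values was not tested. Atf4, the factor of the integrated stress response, had 3705 and 2571 counts (log2 -0.62) and Hspa5, a chaperone of the endoplasmic reticulum, 10976 and 9773 (log2 -0.26). Vegfa also passed in 3 of 5 other tests and Hspb1 in 4 of 6. Tpi1 was named after its values were seen.

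Several groups showed few or no members past the size rule, beside the 31% of all genes that passed it. Of 29 proteasome subunits 0 passed (median -0.03), and of 38 core splicing factors 1 did, U2af1, which fell from 6995 to 3552 counts (log2 -1.07). Of 27 chromatin remodellers and histone modifiers 1 was lower, and of 41 translation factors and tRNA synthetases 3 were lower, Eif4a2 among them with 2329 and 1120 counts (log2 -1.15). These groups are abundant, so their share belongs beside the 11.3% of well-counted genes that passed.

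Among abundant genes with at least 500 counts in the lower library, those with the largest ratios upward included Cd93 (807 to 2542 counts, log2 1.56), Ubl5 (1006 to 2927, log2 1.45), Akap12, a scaffold of protein kinase A (670 to 1910, log2 1.42), and Sec61b, a subunit of the translocon (2043 to 5469, log2 1.33). All 4 rose in edgeR, and their ratios on PUCL were 0.58, 0.77, 1.16 and 0.59. Downward, Zranb2, a splicing protein, fell from 1631 to 652 counts (log2 -1.41), and the histone gene Hist1h2an from 2037 to 833 (log2 -1.38). The largest ratios of all came from scarce genes. Of the 30 genes with the largest bounds, 15 in each direction, 26 had 0 counts in 1 of the 2 libraries, 2 were well counted and 8 passed in edgeR. Prrg4 had 0 and 334 counts, at least 105-fold higher, and 0 and 42 on PUCL. Tmem176b, a membrane protein, rose from 3 to 382 counts and from 99 to 852 on PUCL. Aspa, the enzyme that splits N-acetylaspartate in oligodendrocytes, had 0 and 210 counts, at least 65.8-fold higher, and 73 and 247 on PUCL. Sult5a1, a sulfotransferase, had 178 and 0, at least 63.1-fold lower, and 238 and 0 on PUCL. These 4 went the same way on both platforms, and all 4 passed in edgeR; the calls of Prrg4, Aspa and Sult5a1 held in 4 of 5 other tests. Kif28p, in contrast, had 200 and 0 counts on PUCL@CNT1 but 50 and 201 on PUCL, and Rgs2 135 and 0 against 0 and 15. Atl1, Coq10a, Cplx1, Dlg3, Lmln, Nrf1 and Pdk1, also of the 15 lower genes, likewise met the size rule upward on PUCL. Nrf1, for example, had 157 and 1 counts against 14 and 66. Poc5 was lower on both platforms, and Bbs5 and Pex11a passed in neither direction on PUCL.

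Across all genes the medium ratios on the 2 platforms, which share no library, were described gene by gene with no test. On PUCL 1689 genes were higher (16.1%) and 1605 lower (15.3%), 31.3% in all. Of the 3258 genes that met the rule on PUCL@CNT1, 828 met it in the same direction on PUCL (25.4% of the PUCL@CNT1 genes and 25.1% of the PUCL genes) and 441 in the opposite one. The share of PUCL@CNT1 genes with the same sign on PUCL was 54.8% in the class below 30 counts, 78.0% between 300 and 1000, and 93.8% at 3000 or more. Pearson's r between the 2 ratios, across genes that share libraries and are not replicates, was 0.46 (Spearman's rho 0.40) for the 3619 well-counted genes and 0.08 (0.16) for all 10516. Among the well-counted genes, 250 (6.91%) had a ratio at least 2-fold higher on PUCL@CNT1 by the size rule and 181 (5%) a lower one.

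**Figure D5:**
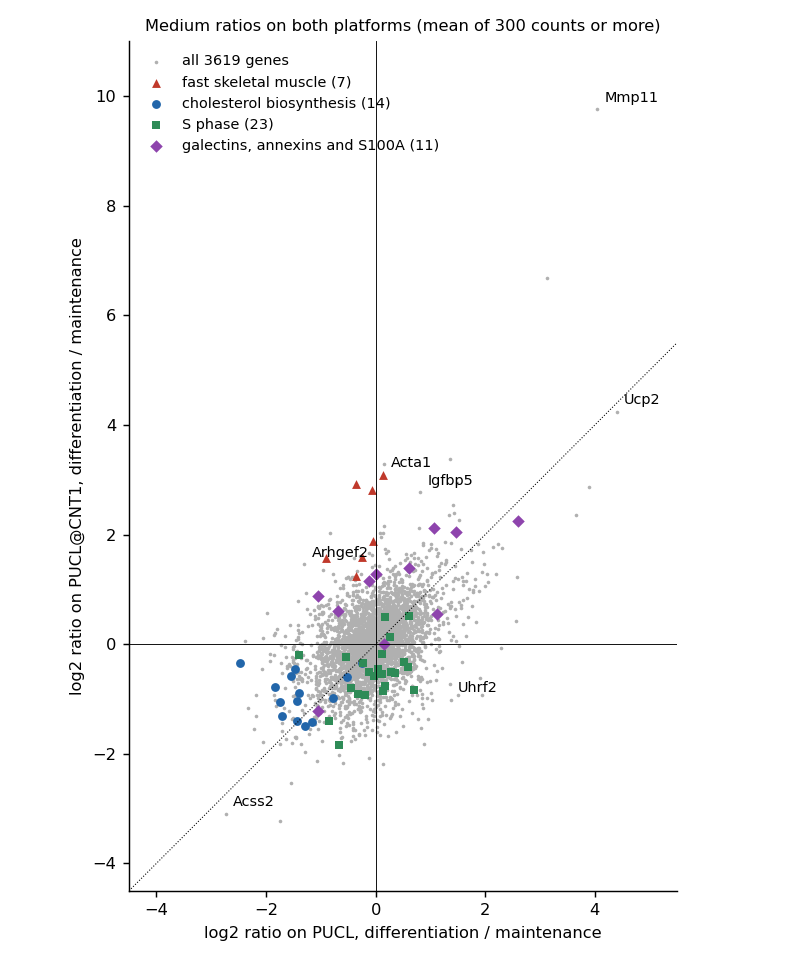
Each point is 1 of 3619 well-counted genes, the dotted line marks equal ratios, and points are placed by the log2 medium ratio on PUCL on the horizontal and on PUCL@CNT1 on the vertical axis. The 14 cholesterol genes lie low on both axes, the 23 S phase genes lie mostly below 0 on PUCL@CNT1 and on both sides of 0 on PUCL, and the 7 fast muscle genes lie high on PUCL@CNT1 and near or below 0 on PUCL; 11 galectins, annexins and S100A genes are also marked.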

How the data were processed

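Gene counts were measured by 3′-end RNA sequencing in 4 libraries, 1 for each platform and medium. The authors deposited raw, unnormalized counts per gene entry. The submitters' processing notes name rn6 as the build, with Bowtie2 and bedtools as tools; the annotation, the strand setting and the versions are not given in the sources used here, so overlapping and antisense genes cannot be told apart. The 17048 entries were summed to 16881 symbols (149 symbols had several entries, Mmp11 among them), and 6365 symbols without 10 counts in any library were left out. Libraries were scaled with TMM factors (edgeR 4.0.16, R 4.3.3). A single pair has no test: ratios (prior count 0.5) carry exact 95% binomial intervals for counting error, and a count of 0 was set to a floor of 3 counts. The difference between the platforms in the medium ratio has a symmetric 95% normal interval on the log scale instead. That interval adds 0.5 to each count and uses no floor. The medium term over all 4 libraries (platform as a term, 1 residual degree of freedom) came from edgeR's quasi-likelihood test with Benjamini-Hochberg adjustment, with DESeq2 1.42.0 as an alternative. With 87.22 prior degrees of freedom, these p-values rest mostly on an estimate of spread borrowed across all genes. A gene's own spread adds 1 degree of freedom, which is the difference between the platforms in its medium ratio. Nothing in the labels ties a library to its own animal or culture, so the spread between libraries may be technical. Some genes are not reported here. The code was tested on simulated counts. Motifs were searched with Python 3.11.15.

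Gene lists covered pathways, organelles and cell types. The members and lists were chosen with earlier results of these data known. Named genes were the 15 with the largest bound in each direction, the 10 in each direction with at least 500 counts in the lower library, up to 3 per list and direction, and a fixed set; other named genes are marked as chosen after their values were seen.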

Additional observations from a re-analysis of the deposited data

Results flagged for a closer look

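Among the well-counted genes that met the size rule on both platforms, 3 went one way on PUCL@CNT1 and the other way on PUCL. Arhgef2, an exchange factor for RhoA, had 138 counts in maintenance and 405 in differentiation medium on PUCL@CNT1 (log2 1.46) but 484 and 192 on PUCL (log2 -1.30), a difference of 2.76 on the log2 scale (95% counting interval 2.40 to 3.13). LOC100910558 had 849 and 445 counts on PUCL@CNT1 (log2 -1.02) and 766 and 1529 on PUCL (log2 1.03), a difference of -2.05 (-2.25 to -1.84). Uhrf2, a ubiquitin ligase, had 714 and 377 counts on PUCL@CNT1 (log2 -1.01) and 345 and 878 on PUCL (log2 1.38), a difference of -2.39 (-2.64 to -2.13). These 3 stand beside 116 well-counted genes that met the rule in the same direction on both platforms. With 1 library per group the difference between platforms was not tested.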

How the results depend on the processing

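With only genes of a mean of 300 counts or more fitted, a limit chosen after the data were seen, 200 genes were higher and 211 lower on PUCL@CNT1, 226 had a higher and 200 a lower ratio than on PUCL, and edgeR called 100 higher and 49 lower. With a 3-fold rule 1192 genes were higher and 900 lower on PUCL@CNT1, and 1076 had a higher and 956 a lower ratio than on PUCL; with no interval these last 2 counts were 2492 and 2328. For the medium term, DESeq2 called 116 higher and 54 lower, and edgeR without the platform term 114 and 62. At an unadjusted p of 0.05 edgeR counted 1273 genes. The cause of these differences was not tested. Of the 294 named genes, 8 changed their side of the size rule with library totals as the scale (Aqp1, Ccnb2, Cdkn1a, Gpx1, Insig1, Maff, Pou3f4 and Slc25a10), and 0 changed sign there; that scale moved the median of all genes from -0.02 to -0.12. Under DESeq2's size factors, or without ribosomal RNA entries, 0 of 58 list medians and 0 of 116 counts of members moved past the limit. Library totals moved 0 medians and 9 counts, and leaving out the low-count filter moved 4 and 1. Keeping genes with 50 or more counts moved 16 of 57 medians and 24 of 116 counts, and a mean of 300 or more moved 26 of 54 and 90 of 116. No paired analysis was possible because each group was 1 library, and no replicate could be left out for the same reason. Depth limits the scarce genes: 1047 of the calls on PUCL@CNT1 had 0 counts in 1 library, 1 of them among the well-counted genes.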
